A study of Homo sapiens with 3 samples.

Results

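The BCL2 family governs whether a cell releases cytochrome c from its mitochondria, and 10 of its genes were followed here through 3 messenger RNA sequencing libraries of PC-3, a human prostate cancer line long kept in culture. The genes were taken by name, as BCL2, BCL2L1, MCL1, BAX, BAK1, BCL2L11, BID, BAD, BMF and PMAIP1, and matched through their Entrez identifiers. All 10 were found among 18331 identifiers. Of the 3 libraries, 2 were labelled KMT2D shRNA (library 1 and library 2, called KMT2D deficient in the labels) and 1 was labelled control shRNA (KMT2D normal). Every culture had received a lentivirus expressing a short hairpin RNA and was sampled 7 days later, so the control cells were infected as well. The labels do not say whether libraries 1 and 2 stand for separate cultures or for different hairpins. The control had no replicate, so its values carry no SD. The spread behind the p-values comes only from the 2 labelled libraries and may be technical. It was largely pooled across genes, so a p-value of 1 gene does not rest on replicates of that gene alone.

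In this family, anti-apoptotic proteins such as BCL2, BCL-XL (from BCL2L1) and MCL1 hold the effectors BAX and BAK in check at the mitochondrial outer membrane. Active BAX and BAK assemble into pores that release cytochrome c, which starts the caspase cascade. BH3-only proteins, among them BIM (from BCL2L11), BID, BAD, BMF and NOXA (from PMAIP1), carry stress signals to the other members, either by occupying the groove of the anti-apoptotic proteins or by acting on the effectors.

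Totals were 5157482 and 5123794 estimated counts in KMT2D shRNA libraries 1 and 2 and 5559449 in the control. KMT2D, the targeted gene, stood at 107 and 138 CPM (read counts scaled for depth, with TMM factors) in the libraries labelled KMT2D shRNA, against 100.1 CPM in the control, so KMT2D RNA was not lower in the libraries labelled for its knockdown (log2 fold change 0.29, adjusted p = 0.227 by edgeR). Directions below are therefore those of the libraries as labelled. Fold change followed transcript length across tested genes, with Spearman coefficients of 0.451 for library 1 and 0.456 for library 2 (genes are not independent replicates), and the calls of the family members are also given with that trend removed. With it removed KMT2D turned to -0.70 (adjusted p = 0.011 by edgeR). With a GC trend removed too KMT2D was at -0.56 and did not pass (adjusted p = 0.053 by edgeR). KMT2D passed in 1 of 9 other settings of scaling, filter, trend and test. Epithelial markers KRT8, KRT18 and EPCAM summed to 409 and 442 CPM in the labelled libraries and to 720 CPM in the control, and their part in the results on the family was not tested. KLK3, a marker of luminal prostate cells, was counted as 0 in all 3 libraries. Of the leukocyte markers, PTPRC lay between 1.27 and 2.17 CPM and CD3E was at 0. Among markers of fibroblasts and endothelium, DCN did not exceed 0.363 CPM and VWF was at 0, whereas the endothelial marker PECAM1 was at 19.3 and 18.9 CPM in the labelled libraries and 20.3 CPM in the control, and COL1A1 was at 373 and 385 CPM in the labelled libraries and 397 CPM in the control. In bulk RNA, fewer cells of a kind and less RNA per cell cannot be told apart.

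The comparison asked which family members differed after KMT2D shRNA, relative to control shRNA. Of the 10 members, 5 fell: PMAIP1, BAD, BMF, MCL1 and BCL2L1. The other 5, BAX, BAK1, BCL2L11, BID and BCL2, did not pass edgeR's quasi-likelihood test at a Benjamini-Hochberg adjusted p under 0.05. By role, 3 of 5 BH3-only genes, 2 of 3 anti-apoptotic genes and 0 of 2 effector genes fell. At an adjusted p under 0.05 DESeq2 gave 3 that fell and 0 that rose, and limma on FPKM gave 1 and 0. DESeq2 gave no adjusted p for BCL2 and BCL2L11, and the FPKM filter used with limma left out BCL2. These genes could therefore not be called there. At an unadjusted p under 0.05 edgeR again gave 5 that fell and 0 that rose, while 2742 of all 14016 tested genes fell and 2969 rose. Over all 14016 genes tested, 14.5% fell and 16.5% rose by adjusted p. The median log2 fold change of the 10 members was -0.38, beside -0.01 over all genes tested. With the length trend removed 4 members fell and 0 rose, while 8.98% of all genes fell and 7.93% rose, and the members' median was then -0.24. Both labelled libraries lay below the control for 7 of the 10 members, as they did for 42.8% of tested genes.

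**Figure D1:**
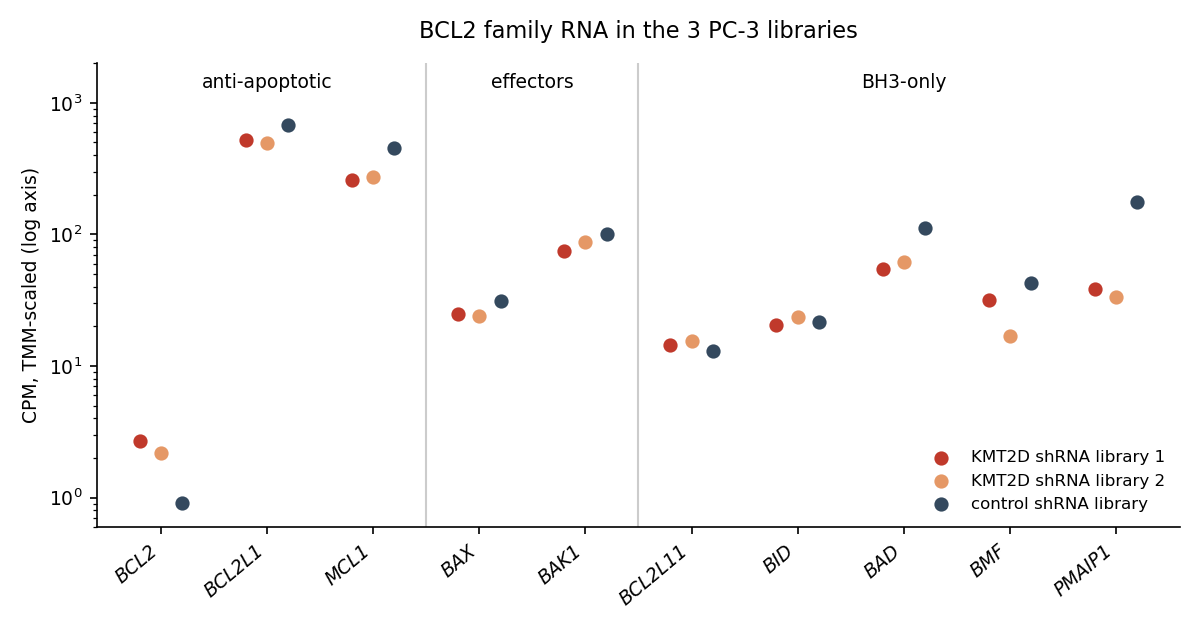
TMM-scaled CPM (log axis) of each BCL2 family gene in KMT2D shRNA library 1, KMT2D shRNA library 2 and the control shRNA library, 1 point a library. PMAIP1 shows the widest gap, with the labelled libraries at 38.2 and 33.3 CPM and the control at 175 CPM, and BID shows none, with the control between the labelled libraries.

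PMAIP1 (Entrez gene 5366) encodes NOXA, a BH3-only protein that binds MCL1 and can send it for degradation. It had 38.2 and 33.3 CPM in the libraries labelled KMT2D shRNA, against 175 CPM in the control. Both labelled libraries were far below the control and close to each other. The mean was 35.8 ± 3.48 CPM (SD, n = 2), and KMT2D shRNA over control came to -2.29 on the log2 scale (SE 0.17, adjusted p = 3.27e-15 by edgeR). These levels rested on 200, 169 and 965 counts. For library 1 over the control the ratio was 0.218, with a 95% interval of 0.186 to 0.254, and for library 2 it was 0.190, with an interval of 0.160 to 0.224. Such intervals are exact binomial ones and cover counting error only. PMAIP1 was the only member whose call held in all 9 other settings of scaling, filter, trend and test, with log2 fold changes between -2.30 and -2.09 and adjusted p-values up to 0.0496.

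PMAIP1 is known to respond to stress and interferon programs, and the genes of both given here were lower in the labelled libraries as well. With a single control library, every gene that fell shares this direction, so joint variation with PMAIP1 cannot be read. The stress factors ATF3, ATF4 and DDIT3 (the gene of CHOP), which are known to act on BH3-only genes, all fell, with log2 fold changes of -1.87 for ATF3 (adjusted p = 9.36e-08 by edgeR), -1.10 for ATF4 (6.67e-07) and -1.73 for DDIT3 (2.01e-10). All 8 interferon-induced genes that were listed for the state of the libraries fell as well, ranging from 4.78 to 104 CPM in library 1 and from 3.94 to 94.2 CPM in library 2, against 299 to 3076 CPM in the control. Their sums were 271, 264 and 7838 CPM in library 1, library 2 and the control. IRF1, an interferon-induced transcription factor, fell by 1.75 on the log2 scale (adjusted p = 3.88e-11 by edgeR). The part of either program in the level of PMAIP1 was not tested.

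The start-site region of PMAIP1 is shown because the gene had the largest change in the family. It spans 250 bases before to 50 bases after the start (RefSeq, GRCh38.p14, chr18:59899746-59900045, plus strand), and the capitals mark a CRE half-site, TGACG read on the other strand, at 55 to 51 bases before the start.
PMAIP1: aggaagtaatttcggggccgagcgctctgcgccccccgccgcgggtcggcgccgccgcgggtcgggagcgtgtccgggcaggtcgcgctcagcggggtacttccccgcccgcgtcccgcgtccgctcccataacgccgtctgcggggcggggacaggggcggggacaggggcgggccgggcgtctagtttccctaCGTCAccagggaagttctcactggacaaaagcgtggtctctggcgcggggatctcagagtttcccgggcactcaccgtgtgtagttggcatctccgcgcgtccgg
BAD and BMF, the other BH3-only genes that fell, hold the same half-site at 54 and 57 bases before a start, and are shown by 55 bases around it (BAD, chr11:64284729-64284783, minus strand; BMF, chr15:40108907-40108961, minus strand; both GRCh38.p14, printed in the direction of the gene, with the half-site in capitals).
BAD: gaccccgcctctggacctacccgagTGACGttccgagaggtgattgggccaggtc
BMF: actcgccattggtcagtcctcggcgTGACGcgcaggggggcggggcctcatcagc
Of the 10 members, 9 matched a RefSeq window, with 16 windows in all, some of which overlap. MCL1 matched none and was not searched. The half-site was in 7 of these 16 windows, in 6 genes, among them BCL2 and BAX, which did not pass the test, and it occurs in 24.5% of all 34943 windows of the same length. It was added to the search after the values were seen. The full CRE (TGACGTCA, which contains the half-site, 1.84% of windows), the C/EBP-ATF element (TGATGNAA, 3.62%) and the interferon response element (GAAA, any 2 bases and GAAA again, 3.57%), searched on both strands, had 0 matches in the members' windows. A match describes letters in the reference and not binding in these cells.

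BAD (Entrez gene 572) links growth factor signalling to apoptosis, since its phosphorylated form is held by 14-3-3 proteins away from BCL-XL. The labelled libraries had 54.7 and 61.7 CPM of BAD, against 112 CPM in the control. Both lay close together and well below the control. BAD averaged 58.2 ± 4.96 CPM (SD, n = 2) there, and the log2 difference was -0.94 (SE 0.17, adjusted p = 3.19e-05 by edgeR). Its transcripts are short (1001 bases), and the log2 fold change of BAD shrank to -0.51 once the length trend was removed (adjusted p = 0.0481 by edgeR) and to -0.29 with a GC trend removed too (adjusted p = 0.218 by edgeR).

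BMF (Entrez gene 90427), which in its inactive form is tied to the actin cytoskeleton through the dynein light chain DYNLL2, was the member on which the labelled libraries differed most from each other. Libraries 1 and 2 stood at 31.5 and 17.0 CPM of BMF and the control at 42.7 CPM. Library 2 lay well below library 1, though both were below the control. The mean of BMF was 24.2 ± 10.3 CPM (SD, n = 2), and KMT2D shRNA over control came to -0.81 on the log2 scale (SE 0.23, adjusted p = 0.0051 by edgeR). On its own, library 1 gave -0.44 for BMF and library 2 gave -1.33. Without the length trend the value of BMF was -1.06 (adjusted p = 0.00546 by edgeR). The ratio of library 1 to library 2 was 1.86 (95% interval 1.43 to 2.44, counting error only). Its call held in 3 of 9 other settings, and DESeq2's adjusted p for BMF was 0.275.

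BCL2L11 and BID, the remaining BH3-only genes, did not pass the test. BCL2L11 (Entrez gene 10018), whose product BIM can bind every anti-apoptotic member, had 14.3 and 15.6 CPM in the labelled libraries, against 13.1 CPM in the control. The labelled libraries were slightly above the control, and the log2 difference was 0.19 (SE 0.27, adjusted p = 0.629 by edgeR), or -0.08 without the length trend. BID (Entrez gene 637), which caspase 8 cleaves to bring death receptor signals to mitochondria, had 20.6 and 23.5 CPM in libraries 1 and 2, against 21.4 CPM in the control. The groups overlapped, and the log2 fold change of BID was 0.04 (SE 0.22, adjusted p = 0.917 by edgeR). BCL2L11 rested on 72 to 79 counts and BID on 108 to 119. Taking both libraries together, the intervals of their ratios to the control spanned 0.783 to 1.66 for BCL2L11 and 0.735 to 1.42 for BID. These intervals cover counting error only and do not give the smallest detectable difference. At this depth a modest difference in either gene could have been missed.

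Among the 9 members with a window, BCL2L11 alone had a FOXO element (TGTTTAC, 3.42% of windows), at a position starting 223 bases before its start. The element is shown in capitals as it reads in the direction of the gene (chr2:111120666-111120722, plus strand, GRCh38.p14).
BCL2L11: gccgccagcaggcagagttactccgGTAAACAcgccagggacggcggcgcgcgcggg
FOXO3, the gene of a FOXO factor known to act on BCL2L11 in other cells, stood at 74.0 and 78.6 CPM in the labelled libraries and at 53.8 CPM in the control, a log2 fold change of 0.50 (adjusted p = 0.0312 by edgeR) that was 0.01 with the length trend removed (adjusted p = 0.979 by edgeR).

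**Figure D2:**
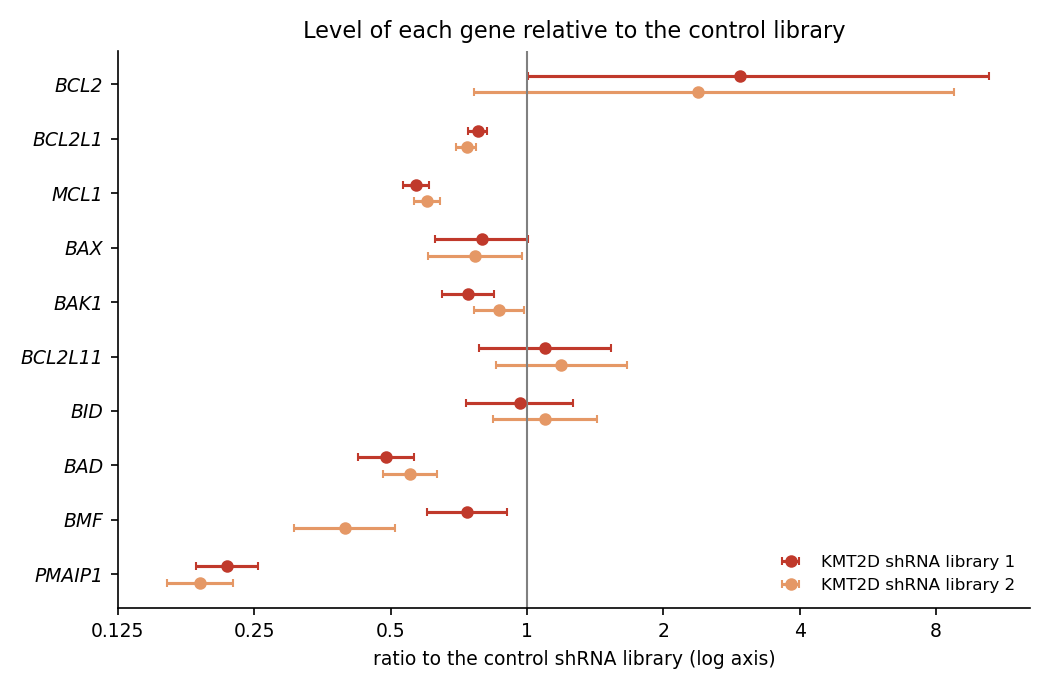
Ratio of each KMT2D shRNA library to the control shRNA library (log axis) for the 10 genes, with exact 95% intervals for counting error. Intervals lie below 1 for 6 members in library 1 and for 7 in library 2, and above 1 for 1 member, BCL2, in library 1. For library 1 over library 2, not drawn, the interval lies below 1 for 1 member and above 1 for 2. Such counts were not made over all genes. The libraries part most on BMF, at 0.739 in library 1 and 0.397 in library 2.

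Among anti-apoptotic genes, MCL1 and BCL2L1 were abundant and BCL2 was scarce. MCL1 (Entrez gene 4170), which encodes a short-lived protein, had 258 and 272 CPM in the labelled libraries, against 453 CPM in the control. Both labelled libraries were below the control and lay close together. MCL1 averaged 265 ± 9.98 CPM (SD, n = 2), and KMT2D shRNA over control came to -0.77 on the log2 scale (SE 0.16, adjusted p = 0.000207 by edgeR). For MCL1 the log2 fold change was -0.95 once the length trend was removed (adjusted p = 0.000261 by edgeR). The call held in 7 of 9 other settings and missed the threshold in limma on FPKM (adjusted p = 0.0594 and 0.0708 for MCL1).

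BCL2L1 (Entrez gene 598), the gene of BCL-XL, was the most abundant member in every library on both scales. It had 526 and 497 CPM in the libraries labelled KMT2D shRNA, against 676 CPM in the control. The labelled libraries were near each other and below the control. The mean of BCL2L1 was 512 ± 20.2 CPM (SD, n = 2). On the log2 scale the difference was -0.40 (SE 0.16), which passed narrowly (adjusted p = 0.0469 by edgeR). That call was lost in all 9 other settings, with adjusted p-values for BCL2L1 from 0.052 to 0.308. Counts are per gene, so BCL-XL and its pro-apoptotic splice form BCL-XS were not separated, nor were the long and short forms of MCL1.

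BCL2 itself (Entrez gene 596), the founding member, was near the limit of detection. It had 14 and 11 counts in the labelled libraries and 5 in the control, or 2.68 and 2.17 CPM in the labelled libraries against 0.908 CPM in the control. A count of 3 corresponds to 0.582, 0.585 and 0.54 CPM in these libraries, before TMM scaling. The log2 fold change of BCL2 was 1.39 (SE 0.84, adjusted p = 0.210 by edgeR), and its ratio to the control ran from 1.00 to 10.5 in library 1 and from 0.765 to 8.76 in library 2. BCL2 entered the test only through the labelled libraries, since its control level was under the cutoff of 1.94 CPM, whereas the 9 other members passed that cutoff in every library.

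The effector genes did not pass the test. BAX (Entrez gene 581) had 24.7 and 23.9 CPM in the labelled libraries, against 31.1 CPM in the control, and the log2 difference was -0.36 (SE 0.21, adjusted p = 0.205 by edgeR). Its listed transcripts are short (892 bases), and without the length trend the log2 fold change of BAX was 0.11 (adjusted p = 0.770 by edgeR). BAK1 (Entrez gene 578), which encodes BAK, a protein held by MCL1 and BCL-XL, had 74.5 and 87.3 CPM in libraries 1 and 2, against 100.6 CPM in the control. Both were below the control, and the log2 fold change of BAK1 was -0.31 (SE 0.17, adjusted p = 0.172 by edgeR), or -0.17 with the length trend removed.

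**Figure D3:**
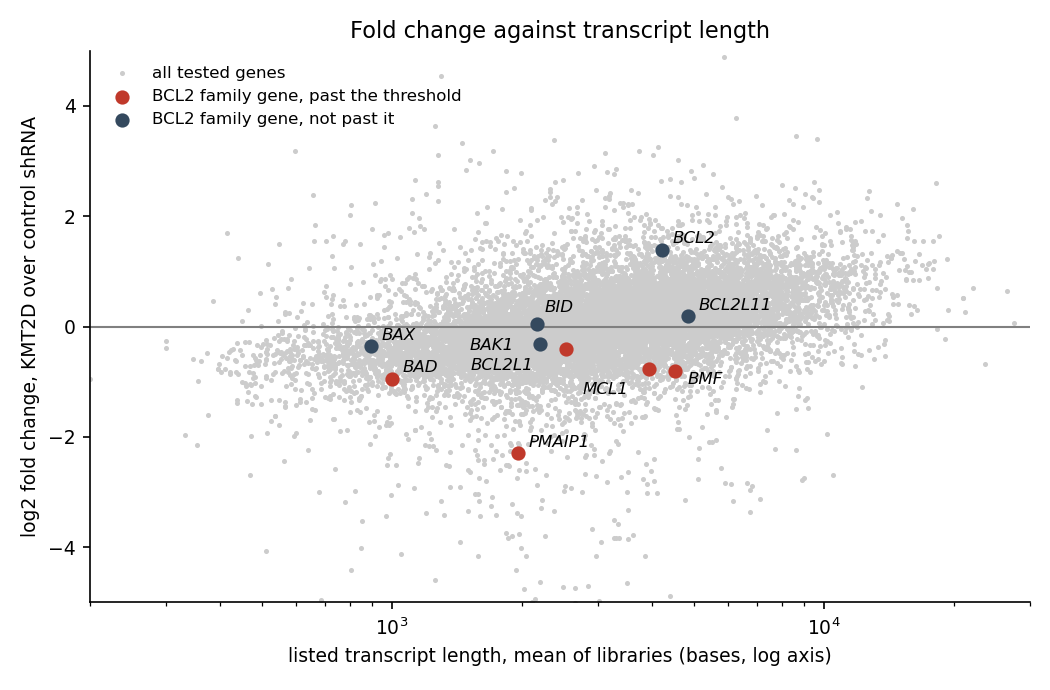
Log2 fold change (KMT2D shRNA over control shRNA) against listed transcript length in bases (log axis), with all 14016 tested genes in grey and the BCL2 family genes named, coloured by whether they passed edgeR's test. The grey cloud rises with length, BAX and BAD sit at its short end (892 and 1001 bases), and 76 grey genes fall outside the axes.

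Per length, the family held fewer transcripts in the labelled libraries, and PMAIP1 made up a smaller share of them. On the deposited FPKM scale, which is scaled by length and library total but still carries the length trend, the 10 genes summed to 434 and 423 FPKM in the labelled libraries, against 691 FPKM in the control. BH3-only genes made up 22.1% and 22.8% of that sum in libraries 1 and 2, against 32.5% in the control. The share of the anti-apoptotic genes was 63.4% and 61.4% in the labelled libraries and 55.9% in the control, and that of the effectors 14.5% and 15.7% in the labelled libraries and 11.7% in the control. For BH3-only and anti-apoptotic genes alike the summed FPKM was lower in both labelled libraries: 96.0 and 96.5 FPKM against 224 FPKM in the control for BH3-only genes, and 275 and 260 FPKM against 386 FPKM in the control for anti-apoptotic genes. Summed anti-apoptotic over summed pro-apoptotic FPKM was 1.73 in library 1 and 1.59 in library 2, against 1.27 in the control. With PMAIP1 left out, a choice made after the values were seen, it was 1.98 in library 1 and 1.78 in library 2, against 1.79 in the control, so that library 2 no longer lay above the control.

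Ratios of single genes ran both ways. Of the 14 ratios of BCL2L1 or MCL1 to a pro-apoptotic member by FPKM, 5 were higher in both labelled libraries than in the control, 7 were lower in both, and for 2 the control lay between the labelled libraries. MCL1 over PMAIP1 was 3.29 and 3.85 in libraries 1 and 2, against 1.34 in the control, and BCL2L1 over BAD came to 3.68 and 3.13 in the labelled libraries and 2.36 in the control. On the other side, MCL1 over BAK1 was 1.90 and 1.66 in the labelled libraries, against 2.63 in the control, and MCL1 over BCL2L11 was 22.9 and 21.4 in the labelled libraries, against 40.7 in the control. BCL2L1 over BAK1, at 6.07 in library 1 and 4.93 in library 2, enclosed the control's 5.91. Between the effectors, BAK1 over BAX was 1.20 and 1.44 in the labelled libraries and 1.27 in the control. These ratios describe single libraries and were not tested, and protein levels were not measured.

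**Figure D4:**
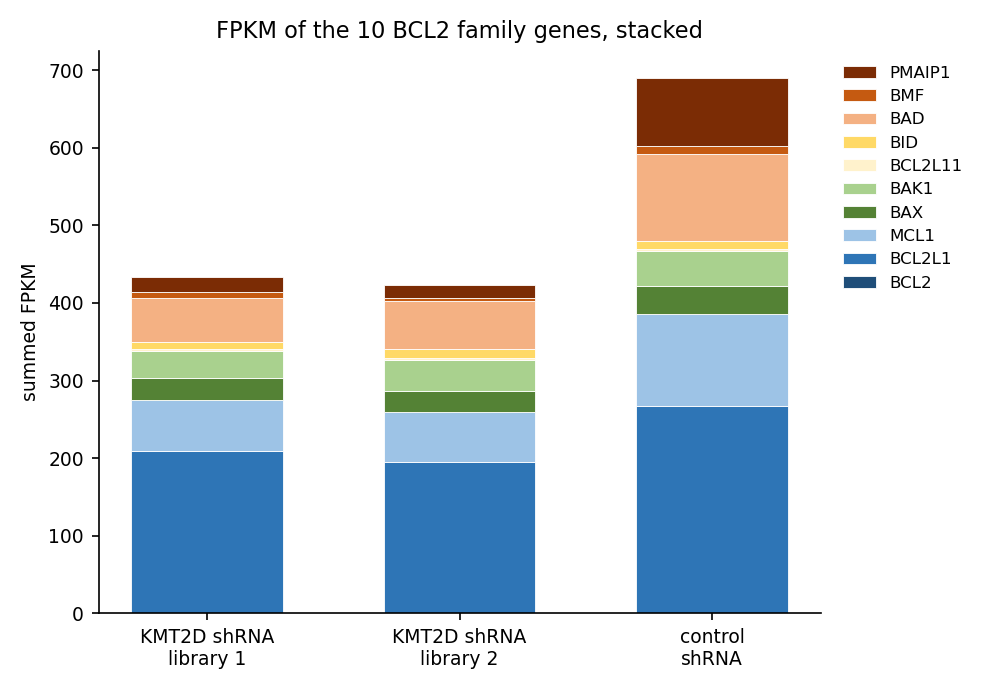
Summed FPKM of the 10 BCL2 family genes, stacked by gene, in KMT2D shRNA library 1, KMT2D shRNA library 2 and the control shRNA library. The stacks reach 434, 423 and 691 FPKM, and the PMAIP1 segment at the top measures 19.9, 16.9 and 88.9 FPKM.

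By level per length the order in the libraries labelled KMT2D shRNA was BCL2L1, MCL1, BAD, BAK1, BAX, PMAIP1, BID, BMF, BCL2L11 and BCL2, the same in both libraries. In the control PMAIP1 came next after BAD, at 88.9 FPKM, above BAK1 at 45.2 FPKM and BAX at 35.6 FPKM. In the labelled libraries it stood at 19.9 and 16.9 FPKM, below BAX at 28.5 and 27.2 FPKM. MCL1 and BAD lay near each other in every library, at 65.5 and 56.7 FPKM in library 1, 65.2 and 62.0 FPKM in library 2 and 119 and 113 FPKM in the control.

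The length listed for a gene with several transcripts differed between libraries. For BCL2L11, with 18 listed transcripts, it was 5052 and 5040 bases in the labelled libraries and 4420 bases in the control, a ratio of 1.14. For MCL1 it was 3972 and 4107 bases in the labelled libraries, against 3739 bases in the control, a ratio of 1.08. Over 6170 tested genes with several transcripts the median of this ratio was 1.00, and its 5th and 95th percentiles were 0.958 and 1.09. BCL2 rested on so few counts that its listed length ran from 2612 to 5889 bases, and its FPKM of 0.65, 0.82 and 0.15 in library 1, library 2 and the control carry that as well.

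The other 13 genes of the wider family gave 5 that fell and 0 that rose among 10 tested by edgeR. At an unadjusted p under 0.05 edgeR gave 6 that fell and 0 that rose, while 2742 of all 14016 tested genes fell and 2969 rose. By adjusted p DESeq2 and limma called 0 as higher. Their median log2 fold change was -0.53, and with the length trend taken out 4 fell, 0 rose and the median was -0.49. Over all tested genes 14.5% fell and 16.5% rose by edgeR, or 8.98% and 7.93% with the length trend taken out. BBC3, which encodes the BH3-only protein PUMA, had 1.72 and 1.97 CPM in the labelled libraries, against 7.27 CPM in the control. For BBC3, KMT2D shRNA over control came to -1.96 on the log2 scale (SE 0.50, adjusted p = 0.00191 by edgeR) from 9, 10 and 40 counts. The value of BBC3 was -1.74 with the length trend removed (adjusted p = 0.0165 by edgeR). With a GC trend removed too it was -1.54 and did not pass (adjusted p = 0.0577 by edgeR). BIK, another BH3-only gene, had 1.15 and 2.76 CPM in libraries 1 and 2, against 6.72 CPM in the control, a log2 fold change of -1.78 (adjusted p = 0.00682 by edgeR). BIK gave -2.53 when library 1 was used by itself and -1.28 for library 2, and the call was lost once the length trend was removed (adjusted p = 0.0871 by edgeR). BNIP3, which acts in mitophagy and in hypoxia, had 226 and 177 CPM in the labelled libraries, against 373 CPM in the control, a log2 fold change of -0.89 (adjusted p = 5.27e-05 by edgeR).

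BCL2L12 fell by 0.51 on the log2 scale and BCL2L13, a mitochondrial outer membrane protein, by 0.55. With the length trend removed the value of BCL2L12 was -0.30 (adjusted p = 0.277 by edgeR) and that of BCL2L13 was -0.83 (adjusted p = 0.00309 by edgeR). BCL2L15 was at -0.63 (adjusted p = 0.0847 by edgeR), or -0.92 with the trend removed (adjusted p = 0.0233 by edgeR). Not passing were the anti-apoptotic genes BCL2L2 at -0.25 and BCL2A1 at 0.09, the effector-like BOK at -0.06 (0.23 without the length and GC trends) and the mitophagy receptor gene BNIP3L at -0.12. BCL2A1 was above the control in library 1 and below it in library 2, with 39.8 and 28.6 CPM against 32.2 CPM in the control. BCL2L10, HRK and BCL2L14, each with at most 1 count in a library, were too low to test.

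**Figure D5:**
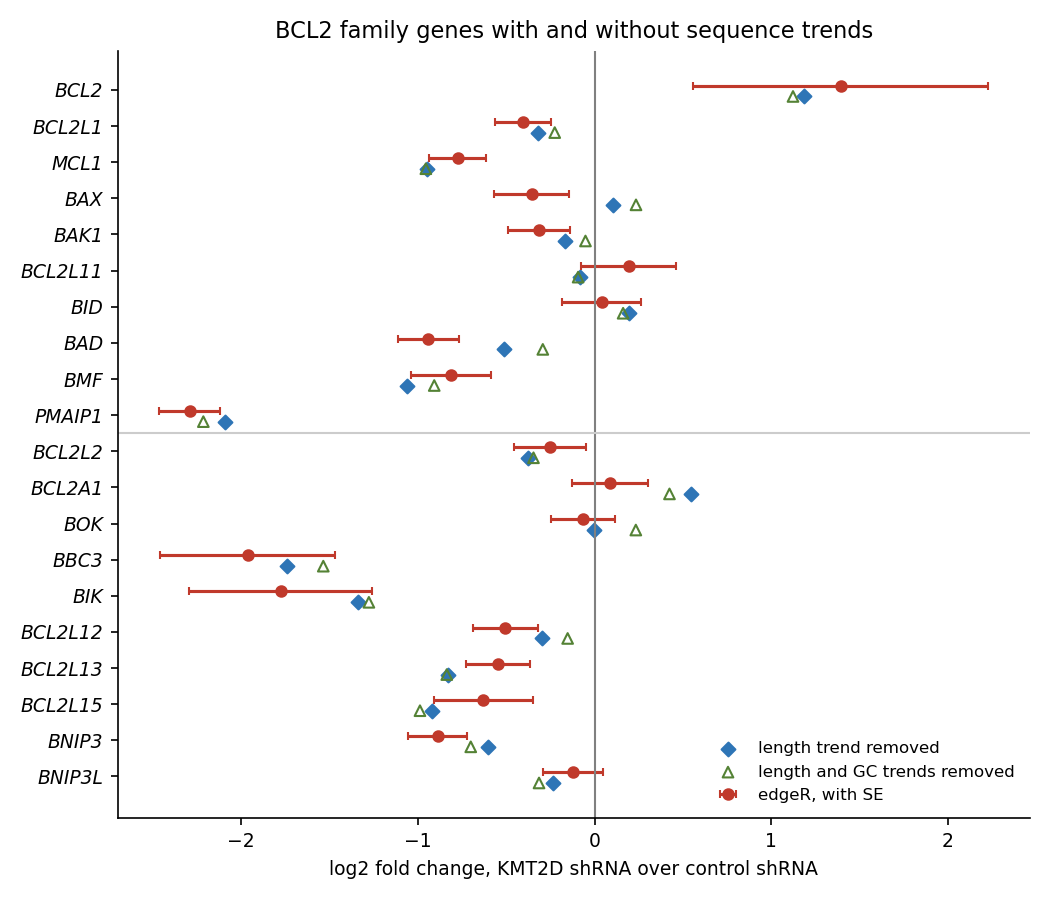
Log2 fold change (KMT2D shRNA over control shRNA) of the 10 members, above the line, and of the 10 other tested BCL2 family genes, below it, by edgeR with SE bars, without the length trend (diamonds) and with length and GC trends removed (triangles). PMAIP1 stays between -2.29 and -2.09, BAD lies at -0.94, or at -0.29 with both trends removed, and BAX crosses 0.

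Partners and turnover factors of the members moved in both directions, with 2 that fell and 4 that rose among 17 tested (1 and 4 after removal of the length trend) and a median log2 fold change of 0.02. Among all tested genes 14.5% fell and 16.5% rose, and nothing is read from these counts about the group. HUWE1, a ubiquitin ligase of MCL1, had 725 and 839 CPM in the labelled libraries, against 303 CPM in the control, a log2 fold change of 1.37 (adjusted p = 1.98e-08 by edgeR). HUWE1 is long (14770 bases), and after removal of the length trend its value was 0.51 (adjusted p = 0.0397 by edgeR). USP9X, a deubiquitinase of MCL1, rose by 0.68 on the log2 scale, a call lost with the trend removed (-0.10, adjusted p = 0.729 by edgeR). SFN, the gene of 14-3-3 sigma, fell by 1.17 on the log2 scale (adjusted p = 5.36e-07 by edgeR), while YWHAB, the gene of 14-3-3 beta, rose by 0.63 (adjusted p = 0.00306 by edgeR). The dynein light chain genes parted: DYNLL1, whose product tethers BIM, fell by 0.55 (-0.03 once the length trend was removed, adjusted p = 0.924 by edgeR), and DYNLL2, whose product tethers BMF, rose by 0.51 (0.80 with it removed, adjusted p = 0.00612 by edgeR).

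Downstream of the mitochondrion, 2 of 14 tested genes fell and 2 rose, and the median log2 fold change was -0.10. These counts are close to the shares over all tested genes, 14.5% down and 16.5% up. After removal of the length trend 2 fell and 2 rose again, but XIAP took the place of DIABLO among those that fell. XIAP, an inhibitor of apoptosis gene at -0.07 before (adjusted p = 0.790 by edgeR), was then at -0.61 (adjusted p = 0.0186 by edgeR). DIABLO, whose product SMAC frees caspases from their inhibitors, fell by 0.53 on the log2 scale, a call lost without the length trend (-0.39, adjusted p = 0.133 by edgeR). BIRC3, which encodes the inhibitor cIAP2, fell by 1.14 (adjusted p = 7.16e-06 by edgeR). Its value was -1.59 with the length trend removed (adjusted p = 3.05e-06 by edgeR). BIRC5, which encodes survivin and is best known as a mitotic gene, rose by 0.92 (adjusted p = 8.5e-05 by edgeR), and the caspase gene CASP6 rose by 0.81 (adjusted p = 0.0418 by edgeR). The apoptosome genes APAF1, CYCS and CASP9 stood at -0.04, -0.02 and -0.02 and did not pass.

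Among 12 tested factors known to act on members of the family, 5 fell and 2 rose (5 and 1 after removal of the length trend), with a median log2 fold change of -0.49, beside 14.5% and 16.5% of all tested genes. Together with ATF3, ATF4, DDIT3 and IRF1, these included IRF3 (-0.81, adjusted p = 0.00022 by edgeR), named after its value was seen, and, on the rising side, FOXO3 and E2F1 (0.65, adjusted p = 0.0129 by edgeR).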

How the data were processed

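Per the labels, oligo(dT)-selected RNA was fragmented, copied with random primers and, after amplification, read on a BGISEQ-500. No step marks strand, so overlapping genes are not told apart. hg19, HISAT and Bowtie2 come from the submitters' processing notes; their roles and versions, and the counting tool, were not given in the sources used here. The authors deposited, per library, estimated counts per gene (about 68% whole numbers), FPKM, and a transcript length in bases, per the file headers. Genes without an entry in a library were taken as 0.

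Estimated counts were rounded. edgeR 4.0.16 (R 4.3.3) used its default low-count filter, TMM scaling and, with group as the sole term, the quasi-likelihood F test, with Benjamini-Hochberg adjustment over 14016 genes, a threshold of 0.05 and 1 residual degree of freedom (common dispersion 0.0119). Dispersion was drawn largely from all genes together (prior degrees of freedom 45.7). SE values derive from the F statistic. The length trend was removed per library by a lowess offset (span 0.3), alone or with transcript GC content (98.2% of tested genes, GENCODE 29). Alternatives used DESeq2 1.42.0, limma 3.58.1 on log2 FPKM with a pseudocount of 1 or 0.1 at a mean FPKM of 1 or more, other scalings and filters. The fit was checked on simulated counts. Ratios to the control carry exact binomial 95% intervals for counting error only. Symbols and promoter windows came from RefSeq (GRCh38.p14), with 99.4% of identifiers matched.

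The members and gene lists were chosen with earlier results of these data known. Named genes were all members, every tested gene of the wider family and, on the partner, downstream and transcription factor lists, up to 4 genes each way past the threshold. Beyond this rule APAF1, CYCS, CASP9, XIAP and IRF3 were named, as were KMT2D and the cell type markers. Protein sequences were not used here, and a few listed genes are not reported here.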

Additional observations from a re-analysis of the deposited data

How the results depend on the processing

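With library 1 left out, 7 of the 10 members had a log2 fold change below 0, and with library 2 left out 8 did, beside 7 with both. Over all 14016 tested genes, 7069 were below 0 with both libraries, and this was not counted with a library left out. Leaving out a library leaves 1 against 1, a value with no test. No paired analysis was possible because the control is a single library without a number. Counts of about 100 or fewer, as for BCL2, BCL2L11, BBC3 and BIK, limit the precision.

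The 5 members that fell were 3 with library totals, 3 with DESeq2 (8 members had an adjusted p), 3 without a filter on low counts, 2 with length and GC trends removed, and 1 with limma at either pseudocount. Over all genes, 2033 fell and 2319 rose by edgeR; 455 and 723 did with DESeq2, 849 and 1048 without a filter, 1258 and 1111 with the length trend removed, 833 and 815 with both trends removed, and 202 and 93 or 72 and 27 with limma at a pseudocount of 1 or 0.1. The median of all genes moved by under 0.1 (log2) in each setting.

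Of the 5 other family genes that fell, 3 were left with library totals, at a mean of 5 CPM or more and with both trends removed, 2 without a filter, 1 with DESeq2 and 0 with limma at either pseudocount. BBC3 and BIK had no adjusted p in DESeq2 and were filtered out at a mean of 5 CPM or more. They could not be called in those settings. Partners that fell (2) numbered 1 with DESeq2, without a filter, and with the length trend or both trends removed, and 0 with limma. Those that rose (4) numbered 2 without a filter and with both trends removed, and 1 or 0 with limma at a pseudocount of 1 or 0.1. Downstream genes that fell (2) numbered 1 with library totals, DESeq2 and no filter, and 0 with limma. Those that rose (2) numbered 1 with library totals, DESeq2, no filter, a mean of 5 CPM or more and both trends removed, and 0 with limma. Transcription factors that fell (5) numbered 2 or 0 with limma at a pseudocount of 1 or 0.1, and those that rose (2) numbered 1 with library totals and with the length trend or both trends removed, and 0 with DESeq2, without a filter and with limma. Except where fewer genes were tested, the cause of these differences was not tested.

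Direction turned for BAX (0.11 with the length trend removed and 0.23 with both), BCL2L11 (-0.084 and -0.093) and KMT2D (-0.70 and -0.56), and for BID (0.04) with library 2 left out (-0.05). Lost calls numbered 9 for BCL2L1, 6 for BMF, 3 for BAD and 2 for MCL1, of 9 settings each.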
